A study of Mus musculus with 12 samples.

Results

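The mouse T cell receptor beta locus was examined in DNase I hypersensitivity data from early T cell precursors. The window covered 750.0 kb of chromosome 6 (mm10), from 41.2 kb before the first V segment, Trbv1, to 5.48 kb before the gene Ephb6. It holds the V, D, J and C segments of the locus, including the constant genes Trbc1 (chr6:41538218-41539881) and Trbc2 (chr6:41546730-41548352). The peaks of 12 libraries merged into 90 sites in this window, of 170207 sites on the autosomes and the X chromosome. The window was fixed by its position, and every site in it was taken. The region itself was chosen with earlier results of these data known.

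In DNase-seq, nuclei are digested with DNase I and the short fragments released from open chromatin are sequenced; a peak marks a DNase I hypersensitive site (DHS), where such fragments pile up. All cells came from C57BL/6J mice. LSK cells (3 libraries) were lineage-negative SCA1+ KIT+ stem and progenitor cells, freshly isolated from marrow. DN1 cells (KIT++ CD44+ CD25-, 2 libraries) were sorted from LSK cells cultured on a high density of immobilized Delta1, a Notch ligand, with 4 growth factors (SCF, FLT-3 ligand, IL-6 and IL-11) and no IL-7. DN2a cells (KIT++ CD44+ CD25+, 2 libraries) and DN2b cells (KIT+ CD44lo CD25+, 2 libraries) came from Delta1 cultures with the same factors plus IL-7. The IgG group (3 libraries) was LSK cells cultured on human IgG1 in place of the ligand, in medium with the same 4 factors. IL-7 is described for Delta1 cultures only. Stage and IL-7 therefore change together between DN1 and DN2 libraries and cannot be told apart. The Delta1-cultured libraries also differ from the LSK and IgG libraries in IL-7 (DN2 only) and in sorting as DN cells, and from LSK in culture itself. In that comparison the ligand cannot be told apart from these. The DN populations were sorted from cultures of each LSK isolate, so libraries of different groups may share mice, and the labels do not say which. The culture flasks also carried Retronectin, and dead cells were removed from cultured cells. No other treatment or allele is given for these libraries.

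The T cell receptor beta chain gene is assembled from separate segments. The RAG recombinase first joins a D segment to a J segment and then a V segment to the DJ join, cutting at recombination signals, which are a heptamer and a nonamer held apart by a spacer beside each segment. Most V segments lie far upstream of 2 clusters in tandem, Trbd1 with the Trbj1 segments and Trbc1, then Trbd2 with the Trbj2 segments and Trbc2. Trbv31 lies beyond Trbc2 in the opposite orientation. An enhancer between Trbc2 and Trbv31 and germline promoters next to the D segments are known to open the D-J-C part for recombination in T cell precursors.

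The D segments, where the first joining step takes place, are printed with the signals on both sides, read from the GRCm38 reference (the assembly of mm10), plus strand. Trbd1 lies at chr6:41533173-41533251 with its signals and Trbd2 at chr6:41542135-41542215. Capitals mark the nonamer and heptamer on the left and the heptamer and nonamer on the right; the lower-case run between the heptamers is the D segment, of 12 and 14 bp.
Trbd1: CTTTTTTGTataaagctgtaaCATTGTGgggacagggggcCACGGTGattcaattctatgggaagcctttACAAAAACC
Trbd2: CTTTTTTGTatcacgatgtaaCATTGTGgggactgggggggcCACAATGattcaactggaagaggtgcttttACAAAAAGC
The left signals have a spacer of 12 bp and the right signals a spacer of 23 bp. The right nonamer of Trbd1 matched the consensus nonamer ACAAAAACC at every base, and that of Trbd2 had 1 mismatch to it. All 4 D heptamers had 1 mismatch to the consensus heptamer CACAGTG.

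The 4 sites that the results turn on are shown by the 150 bp of their highest peak, plus strand, with capitals for ACCACA or TGTGGT (the letters of a RUNX motif) and GGAA or TTCC (the ETS core). They are the site 5′ of Trbd1 (chr6:41532957-41533106), the site 5′ of Trbd2 (chr6:41541817-41541966), the site between Trbj2-7 and Trbc2 (chr6:41544717-41544866) and the site between Trbc2 and Trbv31 (chr6:41554517-41554666), called the enhancer site here because it lies in the interval of the known 3′ enhancer, which neither annotation used here marks.
Trbd1 site: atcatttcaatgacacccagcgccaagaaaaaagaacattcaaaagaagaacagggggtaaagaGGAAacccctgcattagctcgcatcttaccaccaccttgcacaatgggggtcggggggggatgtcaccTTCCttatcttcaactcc
Trbd2 site: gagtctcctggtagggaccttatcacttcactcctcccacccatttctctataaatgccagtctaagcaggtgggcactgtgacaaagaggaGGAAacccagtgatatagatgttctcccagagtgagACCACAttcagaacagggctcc
Trbj2-7 to Trbc2 site: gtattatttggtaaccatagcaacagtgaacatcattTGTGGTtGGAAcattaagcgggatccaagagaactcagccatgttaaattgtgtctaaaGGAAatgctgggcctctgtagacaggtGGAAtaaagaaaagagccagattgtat
enhancer site: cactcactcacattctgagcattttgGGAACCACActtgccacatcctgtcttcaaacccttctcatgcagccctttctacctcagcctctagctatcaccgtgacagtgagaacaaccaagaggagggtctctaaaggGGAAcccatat
In the enhancer peak the GGAA at position 27, counted from 1 at the left end, overlaps the ACCACA at position 30.

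The deposited lists give 1 score per peak, and the depth of sequencing behind them is unknown. The lists held from 32977 to 111657 peaks, and the IgG lists were the shortest (32977 to 37550). A longer list has more room for weak sites. The second DN2b library, with 111657 peaks, was the only source of 20 of the 32 window sites seen in a single library. The first DN1 library, with 96508 peaks, was the only source of 3. The part of list length in this was not tested. Each site was therefore described by its presence and by its percentile, the rank of its highest score within its own list (0 without a peak). The counts were repeated with every list cut to its 32977 highest peaks. With these groups of 2 or 3 libraries, no pair of groups could reach p = 0.05 (the smallest exact p is 0.1 for 2 against 3 and 0.333 for 2 against 2). Tests were therefore made between sets of groups, the 4 DN2a and DN2b libraries against the other 8, and the 6 Delta1-cultured libraries (DN1, DN2a and DN2b) against the 6 LSK and IgG libraries. These comparisons share libraries and are not independent of each other.

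The locus held fewer peaks in the LSK and IgG libraries than in every Delta1-cultured library. The LSK lists had 13, 17 and 17 peaks in the window and the IgG lists 7, 8 and 9. The DN1 lists had 48 and 40, the DN2a lists 45 and 38, and the DN2b lists 38 and 71. Every Delta1-cultured library was above every LSK and IgG library. The means were 46.7 ± 12.6 (SD, n = 6) and 11.8 ± 4.49 (SD, n = 6), a difference of 34.8 peaks (two-sided exact permutation test over libraries, p = 0.00216, adjusted p = 0.00433 over 8 tests). The p of 0.00216 is the smallest that 6 against 6 libraries can give.

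Every Delta1-cultured library was also above every LSK and IgG library relative to list length, while the order within these sets changed. Per 10000 peaks of the list, the LSK libraries had 2.41, 3.11 and 2.72 peaks in the window and the IgG libraries 1.86, 2.43 and 2.40. The DN1 libraries had 4.97 and 5.76, the DN2a libraries 6.57 and 6.58, and the DN2b libraries 6.18 and 6.36. With all lists at 32977 peaks, the LSK and IgG libraries held 5 to 8 peaks, the DN1 libraries 19 and 23, and the DN2 libraries 28 to 37. On that scale the DN2 libraries did not overlap the DN1 libraries, as they did in the lists as deposited.

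**Figure D1:**
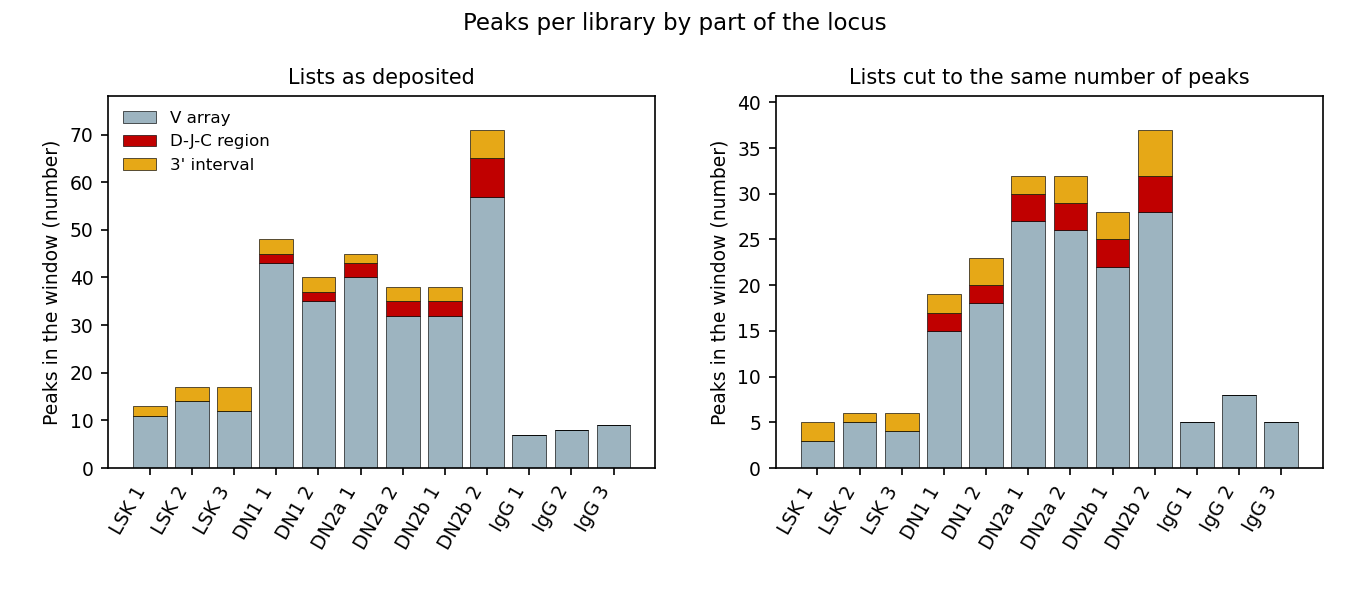
Number of peaks in the window for each of the 12 libraries, stacked by part of the locus, in the lists as deposited (left) and with every list cut to its 32977 highest peaks (right); each bar is 1 library. The 6 Delta1-cultured libraries stand above the LSK and IgG libraries in both panels, and the D-J-C part (red) is missing from every LSK and IgG bar.

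The window was split into the V array (682 kb, from the window start to 1 kb before Trbd1), the D-J-C region (16.2 kb, to the end of Trbc2) and the 3′ interval (51.6 kb, to the window end). The D-J-C region had no peak in any of the 6 LSK and IgG lists. It had 2 peaks in each DN1 list, 3 in each DN2a list, and 3 and 8 in the DN2b lists. The Delta1-cultured libraries were higher by 3.5 peaks (adjusted p = 0.00433, exact permutation test), and the DN2 libraries exceeded the other 8 by 3.75 (adjusted p = 0.00433).

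In the V array the Delta1-cultured libraries had 39.8 ± 9.50 peaks (SD, n = 6) and the LSK and IgG libraries 10.2 ± 2.64 (SD, n = 6), with an adjusted exact permutation p of 0.00433. The DN2 libraries had 22.9 more V-array peaks than the other 8 (adjusted exact p = 0.0377), although the DN1 lists, with 43 and 35, lay within the range of the DN2 lists (32 to 57). Without the second DN2b library the difference was 17.3 (adjusted exact p = 0.121). In the 3′ interval the LSK lists had 2, 3 and 5 peaks, the Delta1-cultured lists 2 to 6, and the IgG lists none. There the difference for Delta1 culture was 1.67 peaks with an adjusted p of 0.190, and with equal list lengths it was 2.17 (adjusted p = 0.0148, exact permutation test).

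With these bounds, peaks were denser in the D-J-C region than in the V array in the 6 Delta1-cultured libraries and in none of the other 6. The V array includes the gaps from Trbv1 to Trbv2 (155 kb, 6 sites) and from Trbv30 to the D-J-C region (250.2 kb, 10 sites). These sparse stretches count in its length, so the comparison depends on where the array is bounded. A V array without the gaps was not tested. Per 10 kb, the D-J-C density was 1.24 in both DN1 libraries, 1.86 in both DN2a libraries and 3.41 ± 2.19 (SD, n = 2) in DN2b, beside V-array means of 0.572, 0.528 and 0.652. Over all 12 libraries the difference was 0.717 peaks per 10 kb (two-sided exact sign-flip permutation test, p = 0.0400). It fell to 0.542 (exact p = 0.0669) when the region was started 5 kb before Trbd1, and without 1 of the Delta1-cultured libraries the exact p was 0.0674 to 0.0801. Without the second DN2b library the difference was 0.408.

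**Figure D2:**
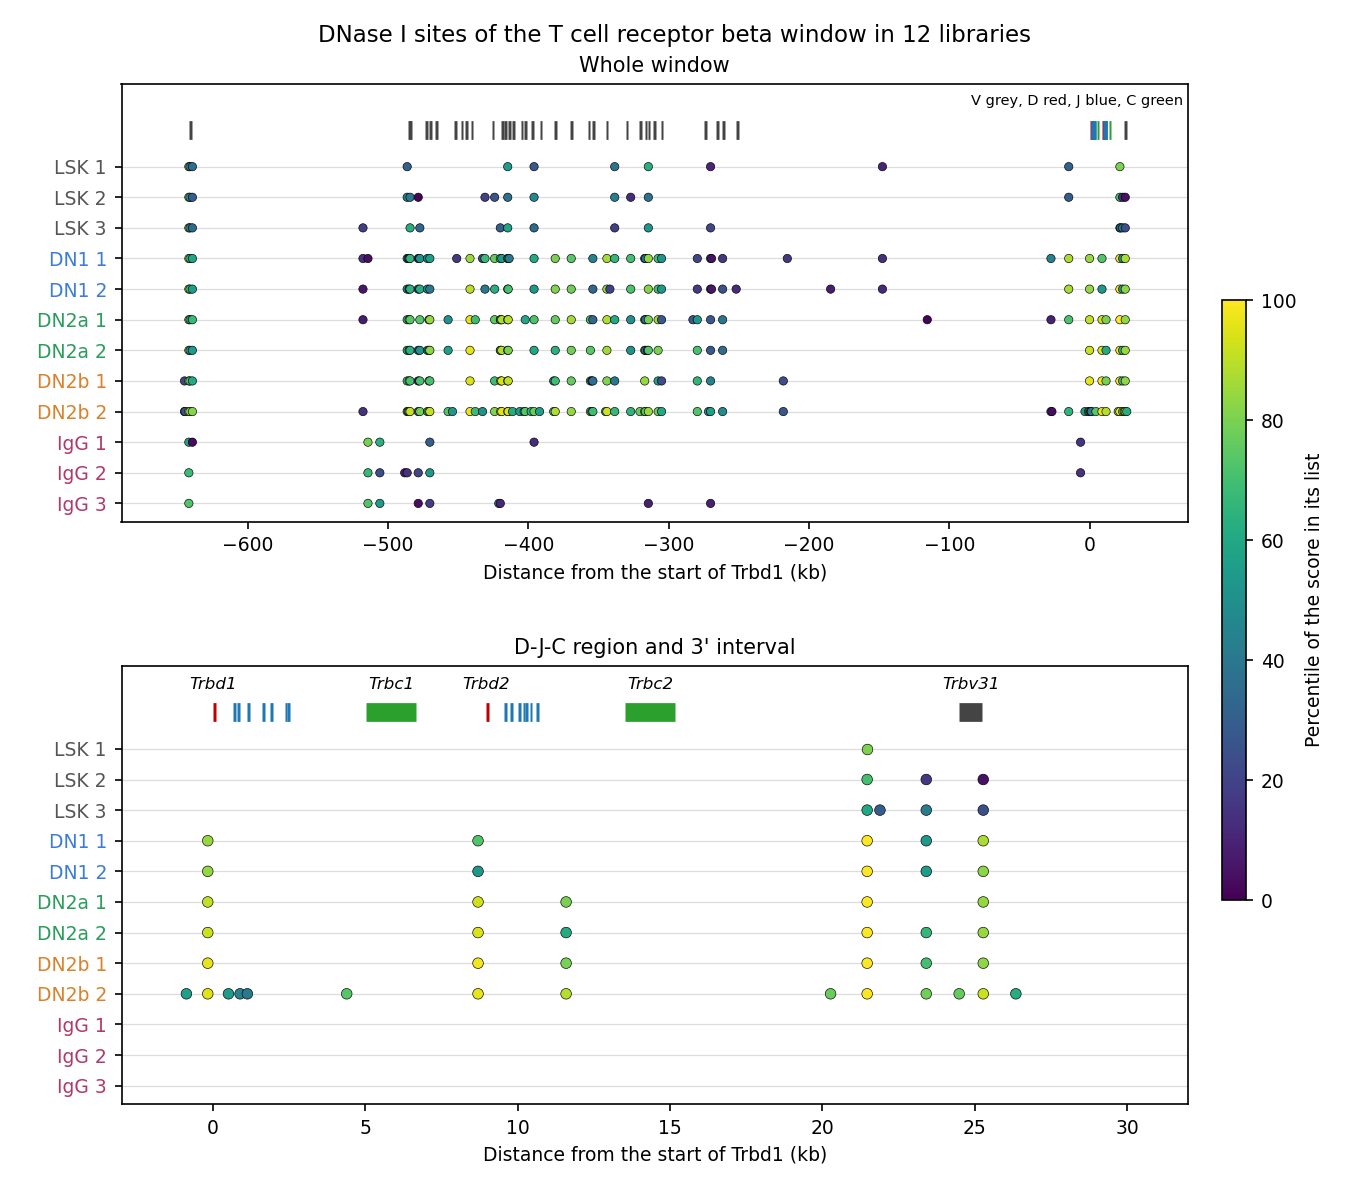
Position of every site as distance from the start of Trbd1 in kb (x axis), 1 row per library, coloured by the percentile of its score in its list; segments are drawn above. In the lower panel, the LSK and IgG rows are empty up to the enhancer site, which is present in LSK, and the IgG rows are empty throughout.

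Site by site, the D-J-C region opened at 3 places that more than 1 library shared. The first lay 170 bp 5′ of Trbd1 (chr6:41532917-41533146; distances are from the middle of the site), where the germline promoter of the first D-J-C cluster is known to act. Its percentile was 84.5 and 83.6 in DN1, 90.3 and 91.9 in DN2a, and 96.5 and 95.2 in DN2b, with no peak in any LSK or IgG library. In the lists as deposited the 3 Delta1-cultured groups did not overlap each other, with DN1 lowest and DN2b highest; with equal list lengths DN2a (79.9 and 85.8) and DN2b (93.4 and 83.8) overlapped. The mean percentile was higher by 90.3 in the Delta1-cultured libraries and by 72.5 in the DN2 libraries against the other 8. Both are given with no test, since sites were tested if at least 4 libraries had a peak, and this site met that filter only through the libraries in which it is high.

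The second site lay 262 bp 5′ of Trbd2 (chr6:41541797-41542006), which likewise has a known germline promoter. Its percentile was 72.5 and 53.3 in DN1, 92.7 and 94.2 in DN2a, and 98.1 and 96.7 in DN2b, again with no peak in LSK or IgG. With equal list lengths the DN1 percentiles were 19.4 and 1.9, against 84.8 to 96.4 in the DN2 libraries. At the Trbd1 site the same cut left 54.7 and 65.5 in DN1, below all DN2 libraries. In both shortened DN1 lists the Trbd2 site ranked below the Trbd1 site. The difference was 84.6 for Delta1 culture and 79.7 for the DN2 libraries, again with no test.

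The third site lay 935 bp beyond Trbj2-7 and 1.94 kb before Trbc2 (chr6:41544697-41544886), and was found in DN2 libraries only. Its percentile was 80.0 and 61.0 in DN2a and 79.6 and 88.9 in DN2b, with no peak in the DN1, LSK and IgG libraries. The mean percentile was 77.4 higher in the DN2 libraries. The site met the filter of 4 libraries only through them, so its adjusted exact p of 0.0333 follows from its presence and adds nothing to it. For Delta1 culture, which includes DN1, the difference was 51.6 (adjusted exact p = 0.131).

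Leaving out 1 library at a time, the DN2 difference stayed between 69.5 and 81.5 at Trbd1 and between 77.4 and 87.8 at Trbd2. With the filter lowered to 2 libraries, which the DN1 peaks meet alone, neither site passed the threshold for DN2 (adjusted exact p = 0.0528 each). The filter of 4 libraries was met at both sites only through the DN2 libraries, so the p-values under it are not given.

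Trbc1 and Trbc2, which encode the constant domains of the beta chain, had no peak in or within 500 bp of the gene in any of the 12 libraries. The closest site to Trbc1 was 627 bp upstream (chr6:41537517-41537666), found in the second DN2b library alone at the 73.7 percentile. That library alone also held the other 4 D-J-C sites, 1 lying 870 bp before Trbd1 and 3 next to Trbj1-1, Trbj1-2 and Trbj1-3, at percentiles of 39.96 to 57.02. With its list cut to 32977 peaks, 4 peaks remained in the region.

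The enhancer site (chr6:41554437-41554906, 470 bp wide, 6.32 kb beyond Trbc2) was the highest-ranked site of the window in every Delta1-cultured library, and it was already open in LSK cells. Its percentile was 80.3, 69.98 and 59.8 in the LSK libraries. It was 99.3 and 99.8 in DN1, 99.4 and 99.5 in DN2a, and 99.8 and 99.9 in DN2b, and no IgG library had a peak there. These values lie at the ceiling of the percentile scale, so a further rise from DN1 to DN2 could not have been seen. The mean percentile was 64.6 higher in the Delta1-cultured libraries. With the filter at 2 libraries, which the LSK peaks meet alone, the adjusted p was 0.0265 (exact permutation test). For this comparison the filter of 4 libraries was met only through the Delta1-cultured libraries, so the p-values under it are not given. For DN2 against the other 8 the mean percentile was 48.5 higher (adjusted exact p = 0.182). At equal list lengths the LSK values were 67.8, 50.3 and 23.8 and the Delta1-cultured values 97.9 to 99.7.

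Trbv31, the V segment beyond the enhancer, had a site 29 bp from its 5′ end (chr6:41558397-41558566), the position of a V promoter. The percentile was 87.1 and 82.5 in DN1, 83.8 and 84.7 in DN2a, and 82.9 and 92.0 in DN2b. Of the LSK libraries, 1 had no peak there and the others had 4.58 and 24.1, and the IgG libraries had none. The mean percentile was 80.7 higher with Delta1 culture. With the filter at 2 libraries, which the LSK peaks meet alone, the adjusted p was 0.0265 (exact permutation test). The filter of 4 libraries was met only through the Delta1-cultured libraries, so the p-values under it are not given. Between the enhancer and Trbv31, 1.08 kb beyond the end of Trbv31, a further site (chr6:41556497-41556726) had 53.7 and 55.1 in DN1, 66.5 in the second DN2a library, 69.9 and 78.5 in DN2b, and 16.2 and 42.0 in 2 LSK libraries (adjusted exact p = 0.0692 for Delta1 culture). The other 4 sites of the interval were each in 1 library, 3 in the second DN2b library and 1 in the third LSK library.

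**Figure D3:**
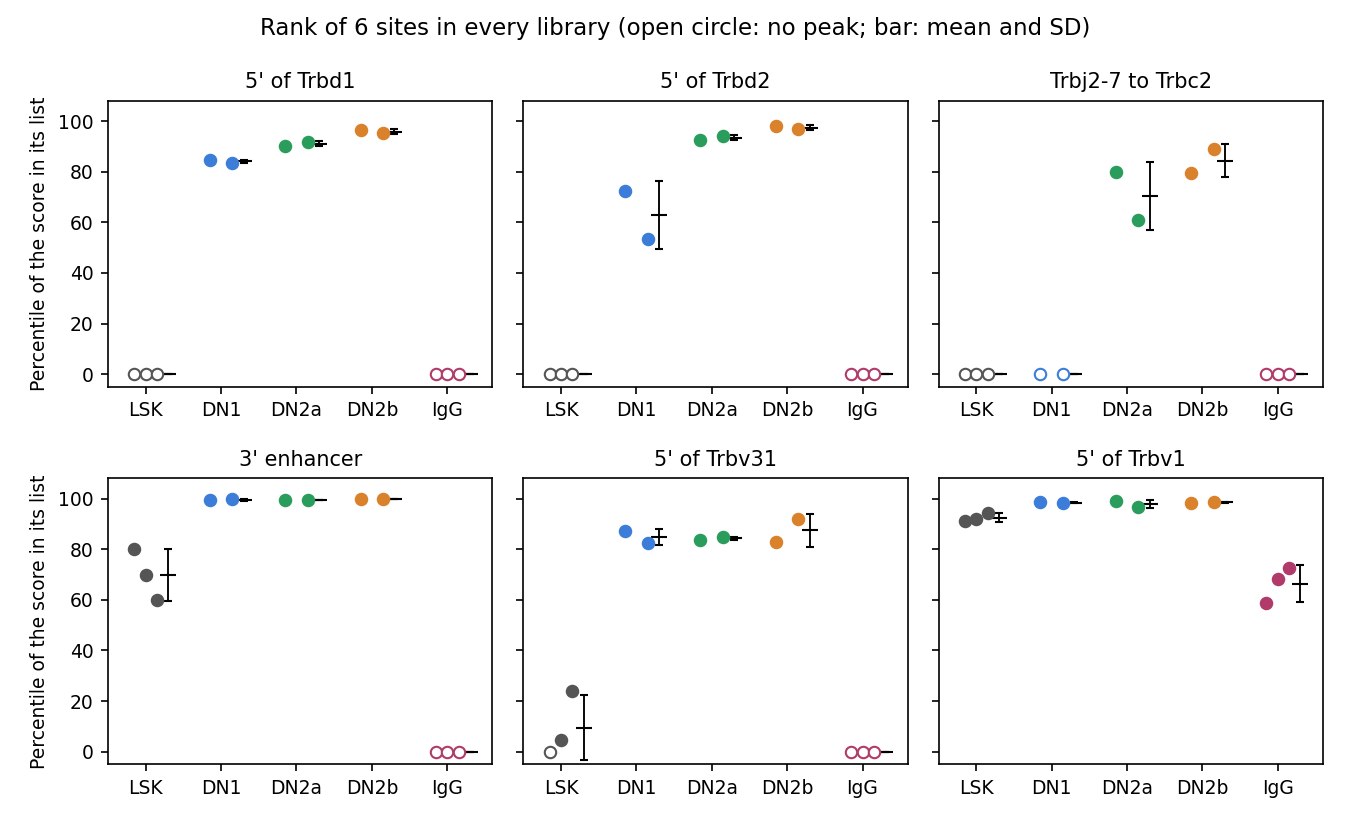
Percentile of the score within its own list (y axis) for 6 sites, by group; each filled circle is a library, an open circle at 0 a library without a peak, and the bar the group mean and SD with such libraries counted as 0. The enhancer site is present in LSK, near the top in all Delta1-cultured libraries and absent from IgG, while the sites 5′ of Trbd1 and Trbd2 are absent from LSK and rank higher in DN2 than in DN1.

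Over the whole window, 43 of the 90 sites had a peak in at least 4 libraries and were tested. Delta1 culture was called higher at 21 of the 43 (48.8%), against 17.2% of all 72177 sites tested, and lower at none, against 1.04%. The DN2 libraries were called higher at 12 (27.9%), against 5.18%, and lower at none, against 0.894%. The median difference over the 43 sites was 50.5 percentile points for Delta1 culture and 45.2 for DN2, where the medians over all tested sites were 16.1 and 8.34. All 12 sites called for DN2 and most of those called for Delta1 culture met the filter only through the set where they were high. Of the locus sites with peaks in at least 4 libraries outside that set, Delta1 culture was called higher at 2 of 4, against 13.9% of 28733 such sites. DN2 was called higher at 0 of 17, against 0.327% of 49778, and at an unadjusted exact p of up to 0.05 at 8 of 17, against 9.0%. With equal list lengths 29 sites were tested. Delta1 culture was higher at 11, against 10.8% of 37679 sites, and DN2 at 20, against 10.5%. Neither was lower at any of the 29, against 5.17% and 3.30% of all. At this cut too, most of the sites called met the filter only through the set where they were high. Genome-wide that cut brought the share of Delta1 calls that were higher from 94.3% to 67.7%. The 12 DN2 calls became 20 without the first DN1 library. That fit called 8208 sites of the genome, against 3738 higher and 645 lower with all 12 libraries, so the rise was not particular to the locus. The DN2 calls became 0 in the fits without an LSK, DN2a, DN2b or IgG library, in which no site of the genome passed.

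Presence alone gave the same order without a test. A peak present in all 6 Delta1-cultured libraries but absent from LSK and IgG was found at 10 of the 90 sites (11.1%), against 1.90% of all 170207 sites. A peak in all 4 DN2 libraries and nowhere else was found at 4 sites (4.44%), against 0.758%. These 4 were the site between Trbj2-7 and Trbc2 and sites 5′ of Trbv5, Trbv12-1 and Trbv19. Sites in all LSK and Delta1-cultured libraries and absent from IgG numbered 3 (3.33%), close to the 3.17% of all sites, and were the enhancer site and sites beside Trbv1 and Trbv12-2. The reverse also occurred: 1 site (1.11%) was in every IgG library and in no other, against 1.89% of all sites. It lay 20.04 kb before Trbv2 (chr6:41027217-41027386), with percentiles of 64.0, 23.1 and 54.6. A neighbour 28.5 kb before Trbv2 (chr6:41018717-41018926) had 79.1, 66.9 and 72.6 in IgG and 3.56 in the first DN1 library, and no peak in the rest.

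In the V array, which supplies the variable domain, 33 of the 75 sites (44.0%) had their middle in or within 500 bp of a V segment, stretches that make up 7.11% of the array, and the other 42 lay farther away. Of the 24 sites found in 6 or more libraries, 12 were that close. These 33 were split evenly, with 15 on the 5′ side, where V promoters lie, 15 on the 3′ side, where the recombination signal lies, and 3 inside. Trypsin genes, which make a pancreatic protease, lie in the gaps of the array. The gap from Trbv1 to Trbv2, 155 kb long, had 6 sites, of which 4 were in 4 or more libraries. That from Trbv30 to the D-J-C region, 250.2 kb long, had 10 sites, of which 1 was.

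Trbv1, the V segment farthest upstream, was the only locus segment whose promoter site was open in all 12 libraries (chr6:40891057-40891326, 38 bp from its 5′ end). Its percentile was 91.3, 91.8 and 94.4 in LSK, 96.8 to 99.0 in the 6 Delta1-cultured libraries, and 58.6, 68.2 and 72.6 in IgG. The 3 ranges did not overlap, and the Delta1-cultured libraries were 18.8 higher than the rest (adjusted p = 0.0167, exact permutation test). This is close to the median difference of 16.1 over all sites tested. A second site on its 3′ side covered the recombination signal in all 6 Delta1-cultured libraries and 2 LSK libraries. That signal, printed because both parts match the consensus at every base, lies at chr6:40891886-40891924, and capitals mark the heptamer and the nonamer.
Trbv1 signal: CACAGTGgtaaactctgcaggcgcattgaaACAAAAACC

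The site with the largest Delta1 difference of the V array was 389 bp 5′ of the pseudogene Trbv10 (chr6:41091457-41091646). It had 84.5 and 89.1 in DN1, 95.9 and 96.0 in DN2a, and 94.5 and 96.7 in DN2b, and no peak elsewhere, a difference of 92.8. Sites with the same presence lay near Trbv3, Trbv12-2, Trbv16, Trbv17, Trbv20 and Trbv26, with 1 more in the pseudogene Gm2719. At those near Trbv10, Trbv3 and Trbv12-2 and in Gm2719, every DN2 library was above both DN1 libraries, and the DN2 mean exceeded that of the other 8 by 74.1, 70.5, 71.8 and 60.8, given with no test. At Trbv16 and Trbv20 the DN1 values (79.8 and 80.6, and 86.7 and 84.2) lay within the DN2 range.

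Of the 35 V segments, 22 had a peak in or within 500 bp in at least 1 library, and they were 19 of the 22 functional segments and 3 of the 13 pseudogenes. A library had such a peak at 3, 5 and 6 segments in LSK, 16 and 15 in DN1, 17 and 14 in DN2a, 14 and 21 in DN2b, and 2, 2 and 4 in IgG. The Delta1-cultured libraries again lay above all others and did not separate among themselves. The 10 segments with a peak in all 6 were Trbv1, Trbv2, Trbv3, Trbv5, Trbv10, Trbv12-2, Trbv16, Trbv17, Trbv20 and Trbv31. The functional segments without a peak in any library were Trbv4, Trbv13-1 and Trbv21. Several V segments are near copies of each other, and reads that fit more than 1 copy may not have been placed, which can hide a peak.

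**Figure D4:**
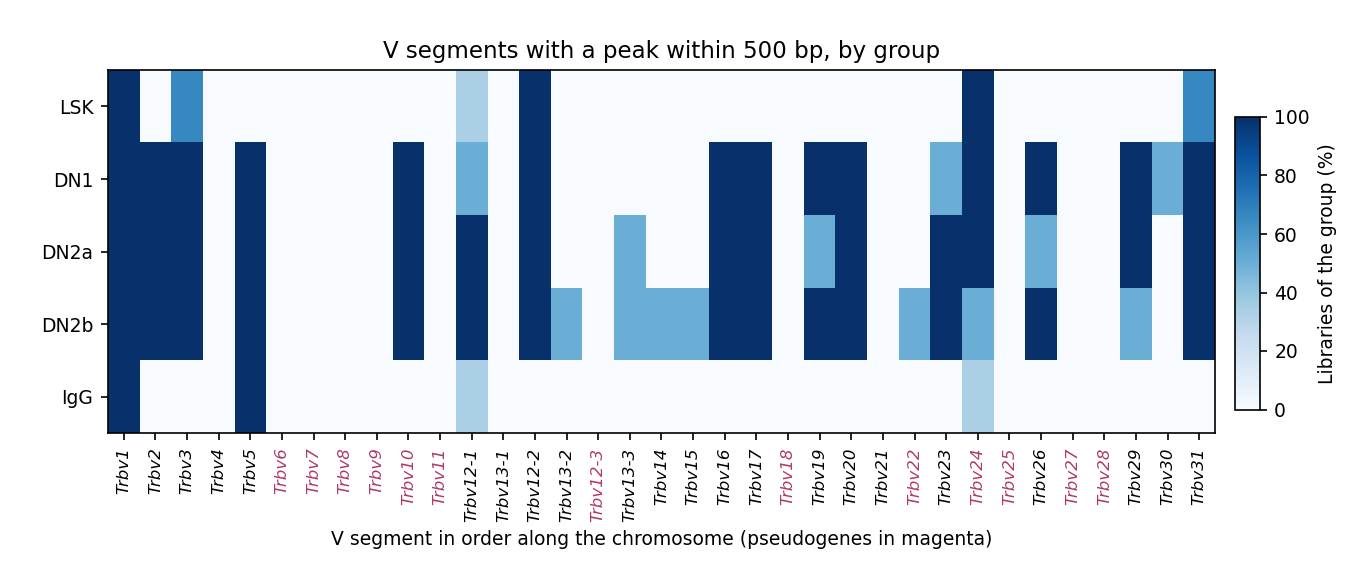
The 35 V segments in their order along the chromosome (x axis; pseudogene names in magenta) and the share of each group's libraries with a peak in or within 500 bp (colour, percent). LSK and IgG rows have few filled cells, and 10 segments are at 100% in all 3 Delta1-cultured rows.

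Peaks seldom lay on the recombination signals themselves. A peak overlapped the signal of 12 of the 22 functional V segments in at least 1 Delta1-cultured library, and in all 6 only at Trbv1 and Trbv3. Signals were taken by position, within 3 bp of the annotated segment end, and the Trbv3 stretch so taken had 4 heptamer and 3 nonamer mismatches. The letters CACAGCC, taken as the heptamer at Trbv2 and Trbv5, begin just before that stretch, beyond the shift allowed. The mismatches given for Trbv3 may therefore overstate those of its signal. At most 1 heptamer and 3 nonamer mismatches were found in 11 of the 22 functional V stretches and 2 of the 14 J stretches. At the D segments none of the 4 signals was overlapped by a peak in any library, since the sites 5′ of Trbd1 and Trbd2 ended before them. Among the 14 J signals only that of Trbj1-3 was covered, in the second DN2b library. Peaks are called at a fixed width of 150 bp, so the opened stretch may be wider than the peak.

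The letters searched in the highest peak of each site were ACCACA (RUNX), GGAA (ETS core), CANNTG (E-box), GATA, CTTTG (TCF), TGGGAA (RBPJ) and CACAGTG (recombination heptamer), on both strands. ACCACA was in 27 of the 90 locus peaks and in 23.1% of the peaks of all 170207 sites. The ETS core was in 86.7% and 86.3%, the E-box in 64.4% and 58.2%, GATA in 45 of the 90 and in 41.4%, CTTTG in 48.9% and 36.5%, and TGGGAA in 11.1% and 12.8%. The TGGGAA of the enhancer peak shares its GGAA with the ETS core and overlaps the ACCACA. The Trbd1 peak held 2 ETS cores and 1 GATA and no ACCACA or E-box. The Trbd2 peak held an ACCACA, an E-box and the heptamer letters, which were in 8.89% of the locus peaks and 5.03% of all. The site between Trbj2-7 and Trbc2 held an ACCACA and 2 E-boxes. These are matches of letters, not measured binding.

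The genes that act on the locus were read at their promoters, within 1 kb of the start of 34 genes in 3 lists, of which 24 could be tested. Delta1 culture was called higher at 8 of the 24 and lower at none, where 17.1% of 11752 promoters tested were called higher and 0.740% lower. Most of the 8 met the filter of 4 libraries only through the Delta1-cultured ones. Among the listed promoters with a peak in at least 4 LSK and IgG libraries, 2 of 15 were called higher, Xrcc4 and Fyn, against 17.0% of 9731 promoters. Rag1, which encodes the cutting subunit of the recombinase, had no peak in LSK or IgG, 29.4 and 53.3 in DN1, 49.3 and 66.5 in DN2a, and 67.9 and 88.9 in DN2b (difference 59.2). Rag2, which encodes the partner subunit of Rag1, had 31.5 in the first DN1 library, 58.0 and 35.1 in DN2a and 71.6 in the second DN2b library (difference 32.7, adjusted exact p = 0.144). Xrcc4, an end-joining factor, was open in all 12 libraries and higher by 7.87 (adjusted exact p = 0.0234), close to the median difference of 6.92 over all promoters tested. Dntt, which adds bases at the joins, had no promoter peak in any library.

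In the receptor list, the kinase Fyn, open in all 12 libraries, was higher by 12.8 with Delta1 culture (adjusted exact p = 0.0234). The kinase Lck and the adaptor Lcp2 were 61.7 and 69.3 higher, given with no test because they met the filter through the Delta1-cultured libraries. Lcp2 was at 77.8 and 64.6 in DN1, 71.1 to 87.4 in DN2 and 52.7 in 1 LSK library, and had no peak in the rest. Cd3e and Cd3g, chains of the receptor complex, had peaks in the 4 DN2 libraries only (68.5 to 98.8 for Cd3e), and Cd3d and Cd247 in both DN2b libraries only. Of the factors known at early T cell genes, Tcf7 had peaks in the 6 Delta1-cultured libraries only (43.6 to 73.0, difference 55.8). Bcl11b had 27.3, 6.13 and 21.3 in LSK, 69.7 and 61.7 in DN1, 95.1 to 97.4 in DN2 and none in IgG (difference 77.02). For both the difference is given with no test. Runx1, Cbfb, Tcf3 and Ctcf were open in all 12 libraries with differences of -2.05 to 3.26.

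For DN2 against the other 8, no promoter among the 11752 was called (0%; the smallest adjusted p was 0.141, exact permutation test). At an unadjusted p of up to 0.05, 11 of the 24 listed genes were higher, against 8.68% of the 11752 promoters, and 1, Runx1, was lower, against 3.05%. Among promoters with a peak in at least 4 of the other 8 libraries, 4 of 17 listed genes were higher at that p, against 6.55% of 10914, and they were Lck, Fyn, Lat and Bcl11b. The trypsin genes inside the locus stayed closed, with 1 promoter peak among 11 genes and 12 libraries, at Try5 in the first DN1 library. Ephb6, beyond the 3′ end of the window, was higher by 48.9 with Delta1 culture (adjusted exact p = 0.0333).

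The promoters whose ranks most resembled the D-J-C region over the 12 libraries (highest percentile in the region, Pearson's r as a description) included those of Ccr7 (r = 0.999), Igf2bp3 (0.997), Hsd11b1 (0.997) and Adora3 (0.995). These 4 had no peak in LSK or IgG and one in each Delta1-cultured library. Those most like the 3′ interval were Nfe2l1 (0.996), Plgrkt and Cd274 (0.992, adjacent genes read at 1 peak), Pcgf6 (0.992) and Mctp2 (0.990). They were open in LSK, higher in the Delta1-cultured libraries and lower or absent in IgG. Pearson's r takes no account of scale. Nfe2l1 was open in all 12 libraries, at 97.2 to 97.3 in IgG, 98.9 to 99.2 in LSK and 99.7 to 99.9 with Delta1. The 3′ interval had no peak in IgG and rose from 59.8 to 80.3 in LSK to 99.3 to 99.9 with Delta1.

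Marker genes of several cell types were read at their promoters too. Of 6 T cell precursor markers, 0 were open in IgG, 1 in LSK, 2 in DN1, 4 in DN2a and 5 or 6 in DN2b. Of 6 myeloid markers, 2 to 4 were open in IgG and 1 or 2 elsewhere; Ly6g was open in no library. Of 6 stem and progenitor markers, 4 were open in LSK, DN1 and DN2b, 3 or 4 in DN2a and 2 or 3 in IgG, with Kit open in all 12 libraries and Ly6a, which encodes SCA1, in none. B lineage markers were open at 1 or 2 of 6 in every library, with Cd79a and Pax5 in none. Of 4 mast cell markers 2 were open in every Delta1-cultured library, 1 in LSK and 0 or 1 in IgG. Of 4 NK and innate markers 1 to 3 were open in the Delta1-cultured libraries, 1 or 2 in LSK and none in IgG. Of 3 erythroid markers 1 or 2 were open outside IgG and none in IgG. The part of cell makeup in the locus differences was not tested, and more cells of an open type and wider opening per cell cannot be told apart in these bulk libraries.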

How the data were processed

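DNase-seq was done on 12 libraries from 5 groups. The authors trimmed and aligned paired-end reads to mm10 (BWA 0.7.12 and SAMtools 1.2, per the submitters' processing notes). Peaks were called by the authors with hotspot2 (false discovery rate 0.05), with 1 list per library and no pooling of replicates. The deposited score of a peak is a whole number of up to 150 whose definition the authors' files do not give, and here it served to rank the peaks of each list. All peaks were 150 bp wide. The lists give no read depth, so no counting error is known. No 2 lists were identical.

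Peaks were read as deposited, without rescaling. Those of all libraries that overlapped by at least 1 bp on the autosomes and X were merged into sites. A site took the highest mid-rank percentile of its peaks in each library, and 0 without a peak. Sites with a peak in at least 4 libraries were tested by a two-sided exact permutation test of the difference of mean percentiles over libraries, with Benjamini-Hochberg adjustment over all such sites and a threshold of 0.05. Promoters (within 1 kb of the start) of protein-coding genes were tested in the same way. Peak numbers per part of the locus were tested by the same test, adjusted over 8 tests. The procedure was checked on simulated data. Scripts used Python 3.11.15, NumPy 2.4.6, pandas 2.3.3 and SciPy 1.17.1. Genes came from GENCODE M21 and sequences from the RefSeq copy of GRCm38, the build of the lists, in which every site's highest peak lay within its chromosome. Recombination signals were read next to the annotated segment ends, shifted by up to 3 bp to the fewest mismatches.

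The region, members, gene lists and tests were chosen with earlier results of these data known. Named sites were all those of the D-J-C region and the 3′ interval, and in the V array up to 20 sites by median percentile among those in every library of a group. The sites 3′ of Trbv1, in Gm2719 and 20.04 kb before Trbv2 fall outside that rule and were named after their values were seen. Named genes were those of the pathway lists and the 5 most similar promoters, of which some items are not reported here. The 500 bp window round segments and the counts of peaks over recombination signals were chosen after seeing the data. Alternatives were equal list lengths, the upper 50% of each list, counts per 10000 peaks, other merging, filters and windows, and leaving out each library. Replicate numbers follow accession order and only name a library. P-values measure the spread between these libraries and treat them as independent.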

Additional observations from a re-analysis of the deposited data

How the results depend on the processing

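No result reversed its direction. With equal list lengths the 3′ interval passed the threshold (2 more peaks in DN2, adjusted exact p = 0.0364, and 2.17 more with Delta1 culture, 0.0148). The sites called became 20 for DN2 and 11 for Delta1 culture, and most of them met the filter only through the set where they were high. At that cut 7 sites were in all DN2 libraries and nowhere else (1.99% of all 76914 sites were). Of 23 pathway promoters 5 were called for Delta1 culture, against 4.41% of 10147. With the upper 50% of each list, the 3′ difference for Delta1 culture was 2.5 (0.00742). Starting the D-J-C region 5 kb before Trbd1 gave a density difference of 0.542 (exact p = 0.0669). Testing sites in at least 2 libraries left 0 sites called for DN2. The cause of these changes was not tested.

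Leaving out 1 library at a time, the DN2 difference ranged from 20.5 to 32.1 peaks in the window (adjusted exact p 0.0121 to 0.121) and from 17.3 to 26.5 in the V array (0.0121 to 0.121), in both lowest without the second DN2b library. It fell short of the threshold without that library, without the first or second LSK library, and without any 1 IgG library. The 3′ difference for Delta1 culture ranged from 1.13 to 2.33 and passed only without the third LSK library. The density difference ranged from 0.408 to 0.801, lowest without the second DN2b library. Sites called for DN2 ranged from 0 to 20. At 0 no site of the genome passed, so that count says nothing of these sites. At 20 the fit called 8208 sites of the genome. Sites called for Delta1 culture ranged from 18 to 23, and the shares over all sites in these fits are not given. The Delta1 differences in the window and V array and both D-J-C differences kept their calls under every alternative run. No paired analysis was possible because the replicate numbers follow accession order and the labels do not tie libraries to an isolate. List length stands in for depth, which is unknown, so an absent peak says less in the short IgG lists than in the longer ones.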
